A study of Mus musculus with 12 samples.

Results

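Macrophages that had met a whole dissociated brain tumor were compared with macrophages that had met the tumor material without its myelin. The comparison took 6 of 12 libraries, 3 labelled Full Tumor and 3 labelled Tumor without Myelin, and it was made over all genes of the count table. The libraries were taken by their labels, not by any measured value. The gene lists, their members and the naming rules were chosen with earlier results of these data known. All libraries were made with an oligo-dT primer from RNA of mouse bone-marrow derived macrophages, sorted as dTomato+ cells from ex vivo assays, per the labels. The other groups, also of 3 libraries each, are Control and Myelin Alone. Each group holds 1 library of each mn number, 957, 958 and 016, and the 6 libraries formed 3 same-numbered pairs. The labels give no strain, genotype, age, exposure time or tumor model for these libraries, do not say what Control cells were given, and do not say what the mn number stands for. dTomato is a red fluorescent protein; the labels do not name the promoter that drives it. Whether same-group libraries stem from different animals is not stated, and the p-values below therefore reflect how far these particular libraries vary, which could be technical variation alone.

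Myelin is the membrane sheath that oligodendrocytes wrap around axons, and it is rich in cholesterol and in sphingolipids such as galactosylceramide and sulfatide. A macrophage that takes up myelin breaks it down in lysosomes, from which cholesterol must be moved out. Cells sense their sterol supply with the SREBP2 system: when sterols are scarce, SREBP2 enters the nucleus and turns on the enzymes of cholesterol synthesis, and when sterols are plentiful it is held back by the Insig proteins. Oxysterols and the synthesis intermediate desmosterol bind the LXR receptors, which turn on genes that export cholesterol. Surplus cholesterol and fatty acids are stored as esters in lipid droplets.

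Libraries held 17071673 to 21689624 counts, and 13414 of 24728 genes had enough counts to be tested. Levels are given as CPM, counts scaled to a common library size with edgeR's TMM factors. As a check of the labelled cell type, the macrophage gene Adgre1, which encodes F4/80, stood at 1465, 1371 and 1956 CPM in Full Tumor and at 1929, 1578 and 2117 CPM in Tumor without Myelin, in the order 957, 958 and 016 that is kept throughout. The libraries numbered 016 stood apart from the others in several gene groups, and these are given beside the results they touch.

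No gene passed an adjusted p of 0.05 in edgeR's quasi-likelihood test with the mn number as a replicate block (0 of 13414, 0%), the fit used throughout unless another is named; the lowest adjusted p was 0.132. At an unadjusted p under 0.05 the same test had 246 genes higher in Full Tumor (1.83%) and 274 lower (2.04%). DESeq2 with the same block called 4 genes higher and 11 lower (15 of 13414, 0.112%), and limma-voom called 0, with 575 genes at an unadjusted p under 0.05. With the test restricted to the 8570 genes that reached a mean of 10 CPM in a group, edgeR called 2 genes higher and 4 lower (0.0700%). These 6 genes included Abcg1 and Gsta3 above, and Sqle and Cyp51 below. DESeq2 called the same 6. As background, Sqle and Cyp51 are known SREBP2 targets, Abcg1 is a known LXR target and Gsta3 is a glutathione transferase. Background shares of the whole table are needed to read the counts below: 14.0% of the tested genes were higher and 14.1% were lower in each of the 3 pairs, and in 2.58% the 3 Full Tumor libraries lay above all 3 of the other group, in 2.45% below.

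The enzymes of cholesterol synthesis were lower in macrophages given the full tumor. Of the 20 enzymes tested, 19 had a log2 fold change below 0, 16 were lower in each of the 3 pairs, and in 9 the groups did not overlap. The median log2 fold change of the 20 was -0.47, beside 0.0038 over all tested genes, and it was -0.57, -0.48 and -0.39 in the 3 pairs. Unadjusted p-values under 0.05 in edgeR belonged to 11 of them, all lower, and none passed the adjustment over all genes. Summed over the 20 enzymes, Full Tumor libraries held 739, 745 and 792 CPM and Tumor without Myelin libraries 1131, 1012 and 1037 CPM, so the 2 groups were separate in total as well.

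Sqle (squalene epoxidase, ENSMUSG00000022351, mm10 chr15:59315077-59331192) catalyses the first oxygen-dependent step of sterol synthesis, a rate-limiting one. It stood at 58.7, 42.9 and 66.9 CPM in Full Tumor and at 126, 81.3 and 119 CPM in Tumor without Myelin. Every Full Tumor library was below every library of the other group. The means were 56.2 ± 12.2 and 109 ± 24.0 CPM (SD, n = 3 each), and the log2 fold change was -0.96 ± 0.14 (SE), with an adjusted p of 0.132 in edgeR, 0.0320 in edgeR above 10 CPM and 1.35e-06 in DESeq2. Leaving out the Control library numbered 016, which enters through the shared fit, gave an adjusted p of 0.0427 in edgeR.

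Cyp51 (ENSMUSG00000001467, chr5:4081145-4104746), the demethylase that acts on lanosterol, stood at 44.7, 47.6 and 46.0 CPM in Full Tumor and at 96.2, 73.5 and 80.0 CPM in Tumor without Myelin. The Full Tumor libraries lay close together and below all of the other group. Its log2 fold change was -0.84 ± 0.14, with an adjusted p of 0.174 in edgeR, 0.0463 in edgeR above 10 CPM and 6.16e-05 in DESeq2. Fdft1, the squalene synthase, stood at 26.4, 21.8 and 18.7 against 45.1, 53.1 and 30.1 CPM (log2 fold change -0.94 ± 0.22), and Msmo1, the methyl oxidase that works after Cyp51, at 117, 127 and 153 against 247, 164 and 205 CPM (-0.62 ± 0.15). Neither group overlapped the other in these enzymes. Fdft1 passed in DESeq2 (adjusted p 0.0357) and not in edgeR (0.989).

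Other enzymes, of the mevalonate part of the pathway and of its last steps, were mostly below 0 as well. Hmgcs1, which makes HMG-CoA, stood at 30.6, 39.6 and 44.2 against 64.1, 54.7 and 53.5 CPM (log2 fold change -0.58 ± 0.21, unadjusted p 0.0191 in edgeR). Fdps, which makes farnesyl diphosphate, stood at 0.528, 1.03 and 0.708 against 0.873, 2.74 and 1.52 CPM (-1.09 ± 0.66, unadjusted p 0.126 in edgeR), lower in each pair with overlapping groups. Idi1, the isomerase of isopentenyl diphosphate, had a log2 fold change of -0.77 ± 0.33, and Acat2, Sc5d and Tm7sf2 had -0.61 ± 0.19, -0.51 ± 0.16 and -0.43 ± 0.18. Ebp, a sterol isomerase, was the 1 enzyme with a fitted value above 0, at 109, 108 and 95.0 against 92.1, 111 and 96.2 CPM (0.066 ± 0.11). Ebp, Dhcr7, Pmvk and Mvd had mixed signs over the pairs, and Dhcr7, Pmvk and Mvd were -0.025, -0.14 and -0.25 in the fit. Without the Tumor without Myelin library numbered 958 Mvd was 0.021. Fdps, Acat2, Sc5d, Tm7sf2, Ebp, Dhcr7, Pmvk and Mvd were named after their values were seen.

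**Figure D1:**
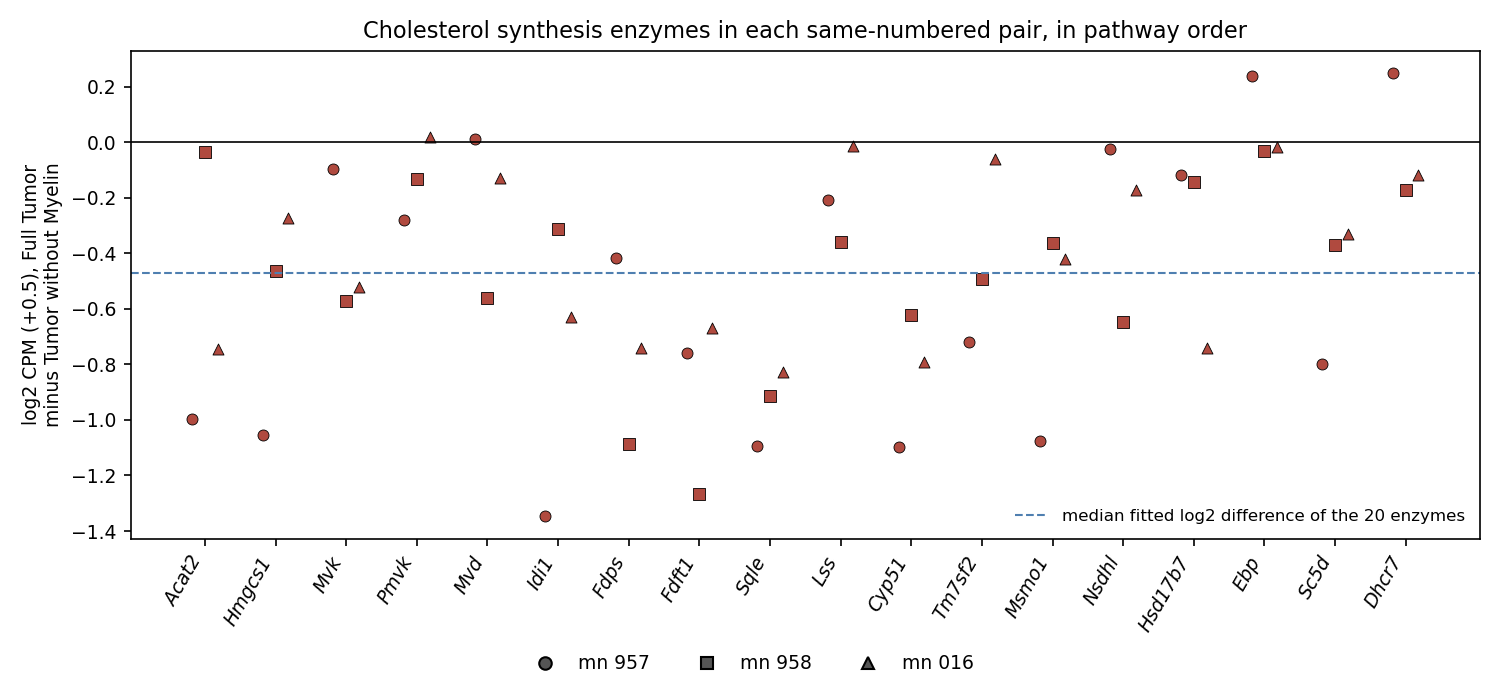
Difference in log2 CPM (after adding 0.5) between the Full Tumor and the Tumor without Myelin library of the same mn number, for 18 of the 20 cholesterol synthesis enzymes in pathway order; each point is 1 pair, and the dashed line is the median fitted log2 fold change of the 20, -0.47. Most points lie below 0, among them all 3 of Sqle, Cyp51, Fdft1, Msmo1, Fdps and Idi1.

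Genes that control sterol supply followed in part. Insig1, which retains SREBP2 in the endoplasmic reticulum and is itself an SREBP2 target, stood at 36.1, 58.7 and 20.7 against 61.5, 81.9 and 43.1 CPM (-0.75 ± 0.18, adjusted p 0.989 in edgeR). It was lower in each pair, with overlapping groups. Stard4, a carrier of cholesterol between membranes, was also lower in each pair (-0.43 ± 0.24). The members that encode SREBP2 itself, its escort Scap, its proteases and Insig2 lay closer to 0. The list had 8 of 8 tested members below 0, 3 of them in each pair, and its median was -0.15. Without the Full Tumor library numbered 016 that median was -0.28.

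Promoters of the sterol enzymes were read for the sterol regulatory element, because most of these genes were lower together. The letters searched were TCACNCCAC on both strands, in the 300 bases from 250 before to 50 after each RefSeq start (GRCm38.p6). Of the 20 enzymes 15 had a promoter in the table, and 1 of the 15 held these letters, beside 1.44% of all 27025 promoters and 1.36% of those of tested genes. That gene was Hmgcs1. Its window on chr13:119690184-119690252 (plus strand) is shown because it is the single match in the lists of sterol synthesis and control, with the matched letters in capitals.
Hmgcs1: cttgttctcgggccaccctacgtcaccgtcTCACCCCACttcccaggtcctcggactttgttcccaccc
No match says only that these letters are not in the window.

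Cholesterol export went the other way. Abcg1 (ENSMUSG00000024030, chr17:31057675-31117988), which passes cholesterol to HDL, stood at 1151, 1169 and 763 CPM in Full Tumor and at 711, 618 and 530.0 CPM in Tumor without Myelin. All Full Tumor libraries were above all of the other group. The means were 1028 ± 229 and 619.6 ± 90.6 CPM (SD, n = 3 each), and the log2 fold change was 0.72 ± 0.11, with an adjusted p of 0.132 in edgeR, 0.0320 in edgeR above 10 CPM and 7.69e-06 in DESeq2. Abca1, which loads cholesterol onto apolipoprotein A-I, stood at 184, 227 and 132 against 91.4, 137 and 73.1 CPM (0.86 ± 0.39, unadjusted p 0.0481 in edgeR). It was higher in each pair, and its Full Tumor library numbered 016 lay inside the range of the other group. Pltp, a secreted phospholipid transfer protein, stood at 676, 786 and 209.5 against 411, 607 and 164 CPM (0.47 ± 0.13, unadjusted p 0.00380 in edgeR). Mylip, a ubiquitin ligase, had a log2 fold change of 0.40 ± 0.20.

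Apoe, a further LXR target and the main apolipoprotein of brain lipid transport, was not higher in each pair: it stood at 9052, 12897 and 4755 CPM in Full Tumor and at 8354, 14049 and 5105 CPM in Tumor without Myelin, with a log2 fold change of -0.04 ± 0.12. Its sign changed when single libraries were left out. Srebf1, which encodes SREBP1, is also an LXR target and had -0.22 ± 0.15. Over the list of LXR targets, 9 of 12 tested members were above 0, 8 were higher in each pair and 1 did not overlap. The median was 0.30, and 0.16 without the Full Tumor library numbered 016.

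**Figure D2:**
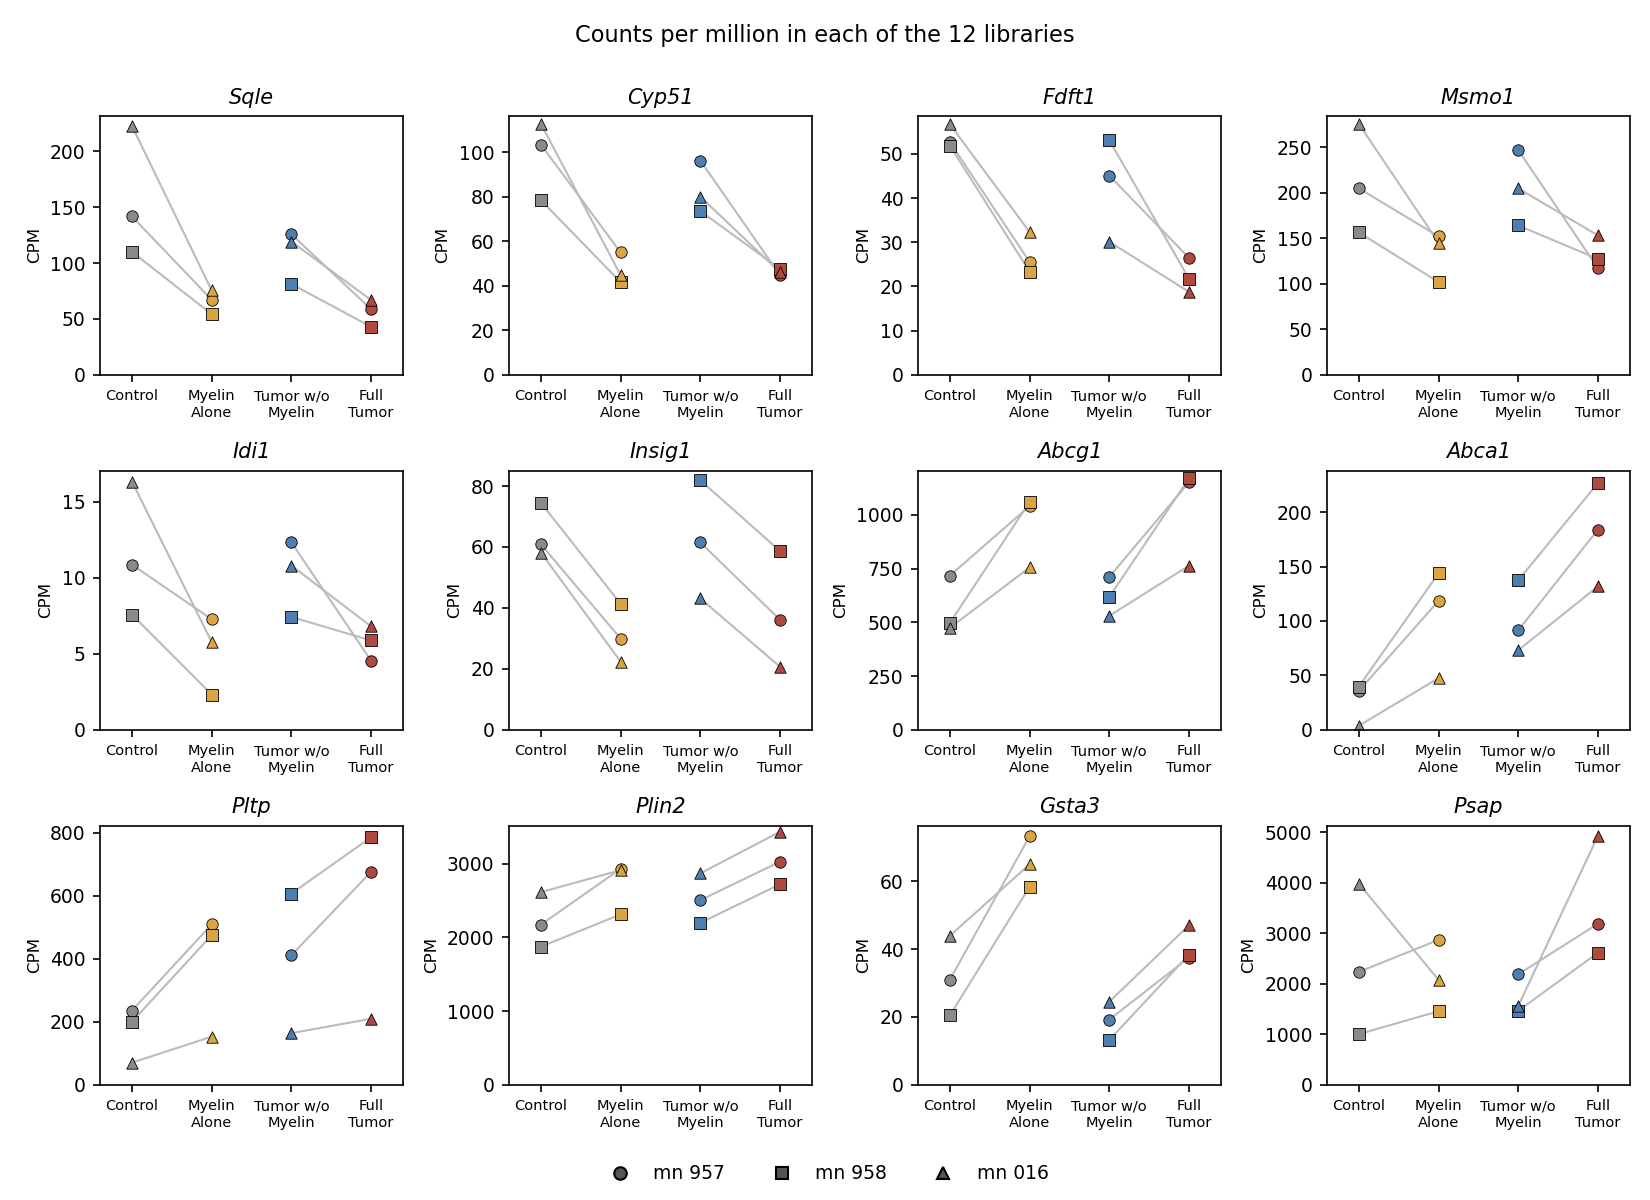
CPM of 12 genes in each library, by group (linear axes from 0); the marker gives the mn number, and grey lines join the 2 same-numbered libraries of Control and Myelin Alone and of Tumor without Myelin and Full Tumor. Sqle, Cyp51, Fdft1, Msmo1 and Idi1 are lower and Abcg1 and Gsta3 higher in all Full Tumor libraries than in all Tumor without Myelin libraries.

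The same genes can be set beside a comparison that shares no library with this one, Myelin Alone against Control, although both come from the same fit and the same mn numbers. There the 20 sterol enzymes had a median log2 fold change of -0.65, with 20 of 20 below 0. That comparison called 5 of 13414 genes in edgeR (0.0373%), 1 higher and 4 lower: Pltp above, and Sqle, Cyp51, Dok2 and Ccl6 below. Sqle was -1.23 ± 0.14 there (adjusted p 0.0137) beside -0.96 ± 0.14 in the tumor material, and Cyp51 was -1.06 ± 0.14 (adjusted p 0.0307) beside -0.84 ± 0.14. Abcg1 was 0.76 ± 0.11 beside 0.72 ± 0.11 and did not pass there (adjusted p 0.0512 in edgeR). Across the 8253 genes with a mean of at least 10 CPM, the log2 fold changes of the 2 comparisons had a Pearson r of 0.283, and across all 13414 tested genes 0.0554. Genes are not independent replicates and these values are a description.

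The difference between the 2 comparisons was tested as an interaction, and no gene passed (0 of 13414, 0% in edgeR, with 393 at an unadjusted p under 0.05; DESeq2 and limma-voom also called 0). Sqle had an interaction of 0.27 ± 0.19 on the log2 scale and Abcg1 one of -0.044 ± 0.16. For Pltp it was -0.68 ± 0.18 (unadjusted p 0.00329 in edgeR). Pltp stood at 236, 201 and 70.3 CPM in Control and at 509, 475 and 153 CPM in Myelin Alone. For Abca1 it was -1.26 ± 0.56 (unadjusted p 0.0436 in edgeR), with 35.8, 39.7 and 3.73 CPM in Control and 118, 144 and 47.4 CPM in Myelin Alone. Both genes were already above their Control level in Tumor without Myelin in each number. The adjusted p of both was 1.00 in edgeR.

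**Figure D3:**
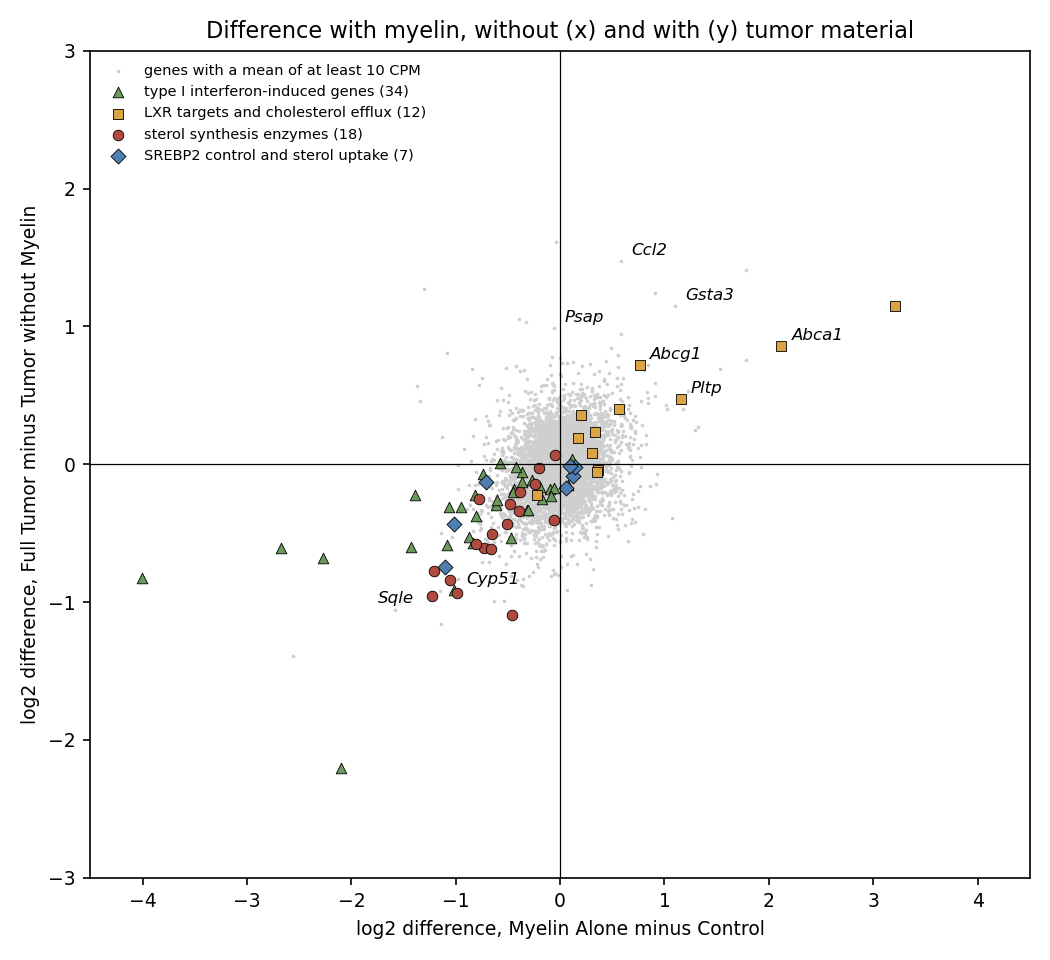
Fitted log2 fold change of Myelin Alone minus Control (x axis) against Full Tumor minus Tumor without Myelin (y axis); grey points are the 8253 genes with a mean of at least 10 CPM and coloured symbols tested members of 4 lists (numbers drawn in brackets). Most sterol enzymes lie in the lower left quadrant and most LXR targets in the upper right one.

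Lysosomal genes were mostly above 0 by small amounts. Of 13 genes for lysosomal sphingolipid breakdown, 12 were above 0 and 7 were higher in each pair (median 0.13). Psap, which encodes the precursor of the saposins that present sphingolipids to lysosomal enzymes, stood at 3185, 2610.5 and 4923 CPM in Full Tumor and at 2184, 1462 and 1556 CPM in Tumor without Myelin. The groups did not overlap, and the log2 fold change was 0.99 ± 0.28 (unadjusted p 0.00472, adjusted p 1.00 in edgeR). In Control it ranged as widely, 2233, 1001 and 3979 CPM. Gla and Glb1, a galactosidase for each of the alpha and beta linkages, had 0.22 ± 0.12 and 0.21 ± 0.12 and were higher in each pair. The list median was 0.045 without the Tumor without Myelin library numbered 957 and 0.049 without the Full Tumor library numbered 958.

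Cholesterol leaves lysosomes through Npc1, which stood at 152, 106 and 166 against 127, 87.9 and 144 CPM (log2 fold change 0.24 ± 0.10), and Scarb2, a lysosome membrane protein, stood at 284, 254 and 203 against 180.1, 215 and 172 CPM (0.37 ± 0.13). Both were higher in each pair, with overlapping groups, and had unadjusted p-values of 0.0337 and 0.0127 in edgeR. Soat1, which esterifies cholesterol for storage, had 0.11 ± 0.13 with mixed signs over the pairs. Cathepsins and lysosome membrane genes had 14 of 18 members above 0 with a median of 0.064. That median was -0.0057 and 0.11 without the Full Tumor libraries numbered 958 and 016, and 0.02 without all libraries numbered 958. In 2 of these, Ctsz, a cathepsin, and Grn, the progranulin gene, all Full Tumor libraries were above the other group (0.22 ± 0.11 and 0.15 ± 0.093).

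Lipid storage and fatty acid use showed single genes rather than a shared shift. Plin2, the coat protein of lipid droplets, stood at 3028, 2721 and 3435 CPM in Full Tumor and at 2507, 2198 and 2869.9 CPM in Tumor without Myelin. It was higher in each pair by a similar amount, 0.28 ± 0.068 in the fit (unadjusted p 0.00153, adjusted p 0.989 in edgeR), while the groups overlapped. Hilpda, an inhibitor of droplet lipolysis, stood at 56.5, 54.2 and 44.7 against 41.9, 34.1 and 28.1 CPM (0.58 ± 0.28) without overlap. Acsl3, of the same list, went the other way without overlap, at 9.82, 7.01 and 8.93 against 11.3, 13.1 and 12.6 CPM (-0.53 ± 0.26). Cpt1a, which admits fatty acids to mitochondria, stood at 151, 163 and 151 against 132, 111 and 123 CPM (0.35 ± 0.12), and Angptl4, a secreted inhibitor of lipoprotein lipase and a PPAR target, at 42.5, 60.4 and 31.0 against 26.6, 31.3 and 26.5 CPM (0.60 ± 0.24). The list medians were near that of all genes: 0.067 for 14 lipid droplet genes and 0.022 for 14 genes of fatty acid oxidation and PPAR targets. Fatty acid synthesis had 7 of 11 members below 0 and a median of -0.10. The sign of this median turned to 0.026 among genes with at least 10 CPM in a group. It was -0.21 and -0.018 without the Tumor without Myelin libraries numbered 957 and 016, -0.16 without the Full Tumor library numbered 016, and -0.18 and -0.013 without all libraries of the numbers 957 and 016. Within the fatty acid synthesis list Acaca, the acetyl-CoA carboxylase, and Me1, the malic enzyme, were higher in each pair (0.51 ± 0.27 and 0.43 ± 0.21). Fads2 had -0.73 ± 0.38 with mixed signs over the pairs.

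Markers of lipid-associated macrophages, a state described in fat tissue and in tumors, were split. Fabp4 and Fabp5, carriers of fatty acids inside the cell, stood at 219, 247 and 129 against 143, 182 and 96.3 CPM and at 487, 489.5 and 343 against 306, 421 and 254 CPM. Both were higher in each pair (0.49 ± 0.14 and 0.44 ± 0.16, unadjusted p 0.00512 and 0.0163 in edgeR). Vim, which encodes vimentin, had 0.32 ± 0.12 without overlap. The markers by which the state is usually named had log2 fold changes nearer 0: Trem2, a lipid receptor, stood at 1969.6, 2146 and 1421 against 2021, 2394 and 1422 CPM (-0.067 ± 0.082), Gpnmb had 0.11 ± 0.094 and Spp1, osteopontin, 0.12 ± 0.091. Lpl, lipoprotein lipase, was lower in each pair, 3503, 4160.2 and 4100.4 against 4210.4, 4308 and 4540.4 CPM (-0.15 ± 0.083, unadjusted p 0.0910 in edgeR). Of the 16 members 11 were above 0, with a median of 0.072, which was 0.0094, 0.027 and 0.12 without the Full Tumor libraries numbered 957, 958 and 016.

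Receptors for lipids, debris and dying cells had a median of -0.0059 over 22 genes, with 11 above and 11 below 0. Cd36, which binds oxidised lipids, had 0.18 ± 0.10, Mertk, a receptor for dying cells, 0.44 ± 0.29 and Gas6, its bridging ligand, 0.22 ± 0.17. Mertk was higher in all Full Tumor libraries, 49.1, 64.1 and 46.1 against 35.7, 44.6 and 35.8 CPM. Cd300ld was lower in all of them, 186, 239 and 255 against 299, 268 and 302 CPM (-0.35 ± 0.17). None of these had an unadjusted p under 0.05 in edgeR.

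Among Fc receptors and complement genes 13 of 16 were below 0 (median -0.10, and -0.041 without the Tumor without Myelin library numbered 016). Fcgr2b, the inhibitory Fc receptor, went against this, at 64.9, 57.3 and 51.5 against 42.5, 47.8 and 45.2 CPM (0.36 ± 0.14, unadjusted p 0.0265 in edgeR), with no overlap. C1qa, of the first complement component, and C5ar1, the receptor for complement C5a, were lower in each pair (-0.23 ± 0.20 and -0.21 ± 0.12).

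The genes with the lowest p-values outside the lipid lists were of mixed function. Gsta3 (ENSMUSG00000025934, chr1:21240589-21265661), a glutathione transferase, stood at 37.5, 38.3 and 47.0 CPM in Full Tumor and at 19.2, 13.2 and 24.5 CPM in Tumor without Myelin. Every Full Tumor library was above every library of the other group, with a log2 fold change of 1.15 ± 0.19 and an adjusted p of 0.174 in edgeR, 0.0470 in edgeR above 10 CPM and 6.16e-05 in DESeq2. Its family holds similar copies, and the counting of reads shared by them is not given in the sources used here. In Myelin Alone it stood at 73.3, 58.3 and 65.0 CPM and in Control at 31.0, 20.5 and 43.9 CPM, so the level in Full Tumor was below that in Myelin Alone in each number.

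Procr, the receptor of activated protein C, stood at 77.7, 71.7 and 99.2 against 53.1, 46.9 and 71.6 CPM (0.55 ± 0.12), and Ipo5, an importin, at 184, 175 and 208 against 142, 100.0 and 164 CPM (0.51 ± 0.12). Neither overlapped between groups. Both passed in DESeq2 (adjusted p 0.0417 and 0.0490) and not in edgeR (0.889 and 0.989). Kif13b and Kif3b, which encode kinesin motors, had 0.63 ± 0.15 and 0.65 ± 0.17, Fam219a had 0.95 ± 0.24, Litaf, a late endosome protein, 0.33 ± 0.086, and Prdx6, a peroxiredoxin that reduces phospholipid hydroperoxides, 0.35 ± 0.086. These 5 passed in no test. They were higher in each pair, which the rule for naming them required and which 1304 genes of at least 10 CPM met.

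On the lower side Cd72, an inhibitory receptor, stood at 615, 906 and 508 against 979, 1143 and 646 CPM (-0.45 ± 0.092). It was lower in each pair, with overlapping groups, and passed in DESeq2 (adjusted p 0.00865) but not in edgeR (0.763). Dok2, an adaptor that restrains tyrosine kinase signals, stood at 91.5, 93.6 and 133 against 128, 143 and 162 CPM (-0.46 ± 0.10) and Trf, transferrin, at 338, 505 and 216 against 479, 673 and 263 CPM (-0.40 ± 0.091). Dok2 and Trf passed in DESeq2 alone (adjusted p 0.0247 and 0.0357). Like Cd72, each was lower in the 3 pairs, which the naming rule required and which 1267 genes of at least 10 CPM met. Dok2 was also called in Myelin Alone against Control (-0.76 ± 0.10, adjusted p 0.0307 in edgeR). Stap1, an adaptor protein, stood at 96.8, 90.5 and 123 against 163, 152 and 135 CPM (-0.55 ± 0.13) without overlap and passed in no test. The DESeq2 calls also held 3 genes of low counts. Mmp9, a matrix protease, stood at 0, 0 and 0.992 against 3.95, 0.685 and 2.31 CPM, Zfp184 at 0, 0 and 0 against 1.49, 0 and 0 CPM and Pacsin1 at 0, 0 and 0 against 0.770, 2.00 and 0.425 CPM. A count of 0 allows up to 3 counts, 0.158, 0.171 and 0.142 CPM in the Full Tumor libraries (counting error only). Zfp184 and Pacsin1 were named after their values were seen.

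**Figure D4:**
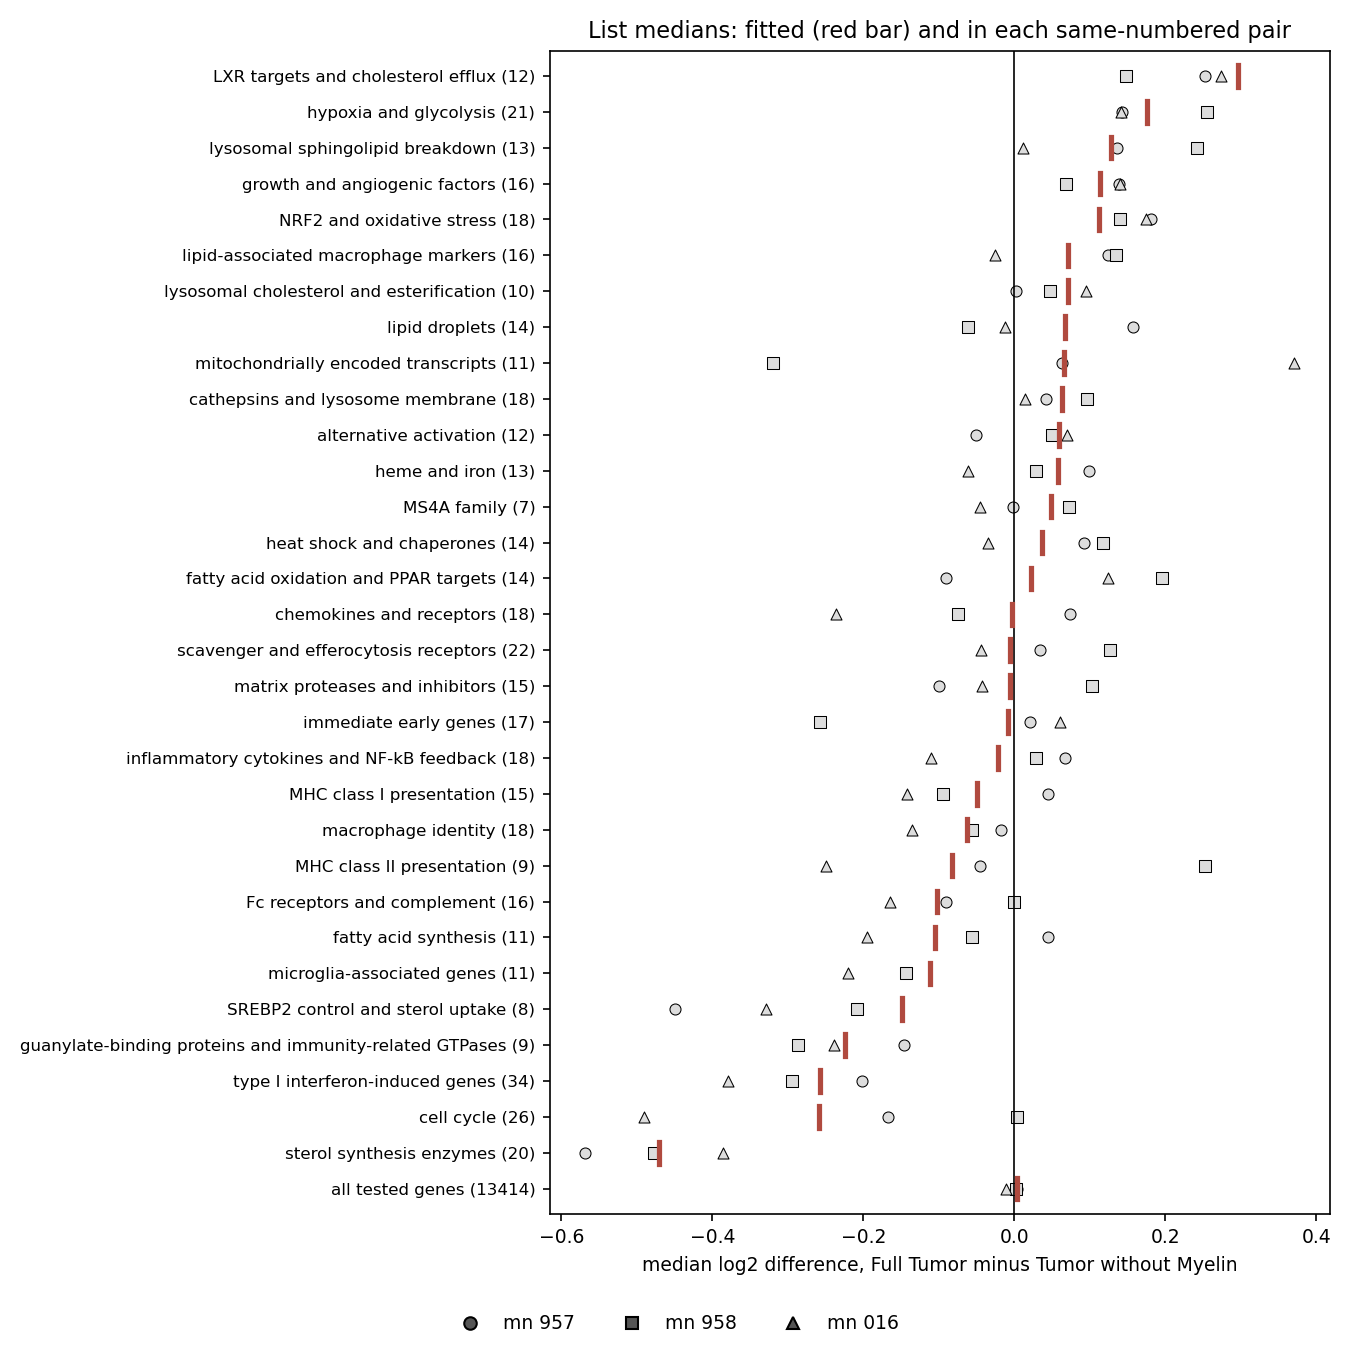
Median log2 fold change, Full Tumor minus Tumor without Myelin, for the macrophage gene lists with at least 7 tested members (number tested in brackets; lists of other cell types are not drawn) and for all tested genes; red bars are medians of the fitted values and the 3 symbols the medians of the differences in the same-numbered pairs. Among the lists drawn, the sterol enzymes lie lowest, at -0.47, and the LXR targets highest, at 0.30.

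Genes of hypoxia and glycolysis were above 0 in 21 of 21 cases, and 14 were higher in each pair (median 0.18; 0.14, 0.26 and 0.14 by pair). None passed. Ndrg1, a stress gene induced in hypoxia, stood at 32.3, 29.5 and 41.8 CPM in Full Tumor and at 28.2, 20.4 and 28.7 CPM in Tumor without Myelin, without overlap (0.43 ± 0.14, unadjusted p 0.00976 in edgeR). Pfkfb3, which makes the activator of phosphofructokinase, stood at 28.9, 22.8 and 83.9 against 15.9, 19.4 and 39.2 CPM (0.72 ± 0.29), and Pgam1, the phosphoglycerate mutase, at 226, 192 and 349 against 187, 151 and 307 CPM (0.27 ± 0.10). The summed level of the list was highest in the number 016 in both groups: 11838, 11123 and 15876 CPM against 11141, 9980.0 and 15004 CPM.

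Genes of the NRF2 response to oxidative stress were above 0 in 18 of 18 cases and higher in each pair in 10 (median 0.11). The median was 0.18 without the Full Tumor library numbered 958, and 0.20 and 0.18 without the Tumor without Myelin libraries numbered 958 and 016. Hmox1, which degrades heme, stood at 1585, 1550.3 and 2474 against 1194, 1073 and 1929 CPM (0.43 ± 0.19, unadjusted p 0.0460 in edgeR). It was higher in each pair, and in Tumor without Myelin the library numbered 016 was above 2 of the Full Tumor libraries. In the iron genes, Hfe, the regulator of iron uptake, was lower in each pair, 149, 168 and 93.8 against 186, 233 and 125 CPM (-0.40 ± 0.10, unadjusted p 0.00200 in edgeR), and Slc11a1, the iron exporter of phagosomes, was higher without overlap (0.21 ± 0.10). The list of heme and iron genes had a median of 0.058.

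Type I interferon-induced genes were below 0 in 32 of 34 cases and lower in each pair in 25, with a median of -0.26 (-0.20, -0.29 and -0.38 by pair). None had an unadjusted p under 0.05 in edgeR and in 0 of them the groups were separate. Their level differed more between numbers than between groups: summed over the list, Full Tumor held 4081, 4442 and 1235 CPM and Tumor without Myelin 4524, 5381 and 1518 CPM. The number 016 was near the Control libraries, which held 1166, 1193 and 1740.5 CPM, while 957 and 958 were well above them. Irf7, the master regulator of the interferon response, stood at 377, 385 and 16.4 against 398, 518 and 30.0 CPM (-0.31 ± 0.75), and Ifit3, an antiviral effector, at 89.0, 105 and 3.92 against 120.0, 169 and 10.8 CPM (-0.61 ± 1.01). Oas2, which senses double-stranded RNA, had -0.53 ± 0.42 and Stat2, which carries the interferon signal, -0.33 ± 0.25, both lower in each pair. Cxcl10, a chemokine that draws T cells, was low throughout: 1.06, 0.0570 and 1.37 against 1.28, 2.63 and 6.86 CPM (-2.20 ± 1.14).

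The direction of the interferon list rested on single libraries. Its median was 0.066 without the Tumor without Myelin library numbered 958, 0.046 without the Full Tumor library numbered 016 and -0.083 without the Tumor without Myelin library numbered 957. It was -0.60 without the Tumor without Myelin library numbered 016, and -0.55 and -0.55 without the Full Tumor libraries numbered 957 and 958. Guanylate-binding proteins and immunity-related GTPases, which are also interferon-induced, had 8 of 9 members below 0 and a median of -0.22, which was -5.0e-05 without the Full Tumor library numbered 016 and -0.53 without the Tumor without Myelin library of that number. Irgm2 and Gbp9 were lower in each pair (-0.40 ± 0.32 and -0.43 ± 0.32).

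A response element was common in the promoters of these genes. They were listed as interferon-induced, so a high share says nothing about the present comparison. The core of the interferon-stimulated response element, written as GAAA, any 2 bases and GAAA again, was searched on both strands of the same 300 bases. It was found in 15 of 24 type I interferon genes with a promoter (62.5%) and in 7 of 7 of the GTPase list, beside 4.03% of tested genes with a promoter and 3.99% of all 27025. Ifit1, Isg15, Stat2 and Cxcl10 were lower in each of the 3 pairs, as were other members with matches, among them Ifit3. Windows of the first 4 named, all upstream of the start, are shown as examples, with matches in capitals on either strand, some overlapping. They are on chr19:34640774-34640843 (plus strand) for Ifit1, chr4:156200845-156200914 (minus strand) for Isg15, chr10:128270248-128270315 (plus strand) for Stat2 and chr5:92349063-92349132 (minus strand) for Cxcl10.
Ifit1: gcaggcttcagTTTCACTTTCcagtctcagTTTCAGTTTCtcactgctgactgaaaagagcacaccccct
Isg15: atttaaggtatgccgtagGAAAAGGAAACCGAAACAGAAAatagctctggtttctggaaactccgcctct
Stat2: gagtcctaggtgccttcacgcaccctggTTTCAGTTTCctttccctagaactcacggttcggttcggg
Cxcl10: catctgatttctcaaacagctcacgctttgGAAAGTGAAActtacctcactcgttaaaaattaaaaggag
A match is a description and not a site of binding. For the NRF2 list, the antioxidant response element core TGACNNNGC was found in 6 of 13 promoters (46.2%), beside 17.2% of tested genes with a promoter. That share was not particular to the list. The letters were also in 3 of 6 MHC class II promoters (50%) and 5 of 11 of growth and angiogenic factors (45.5%), but in 0 of 12 of lipid droplet genes. Members were listed for the NRF2 response, so the share says nothing about the present comparison.

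**Figure D5:**
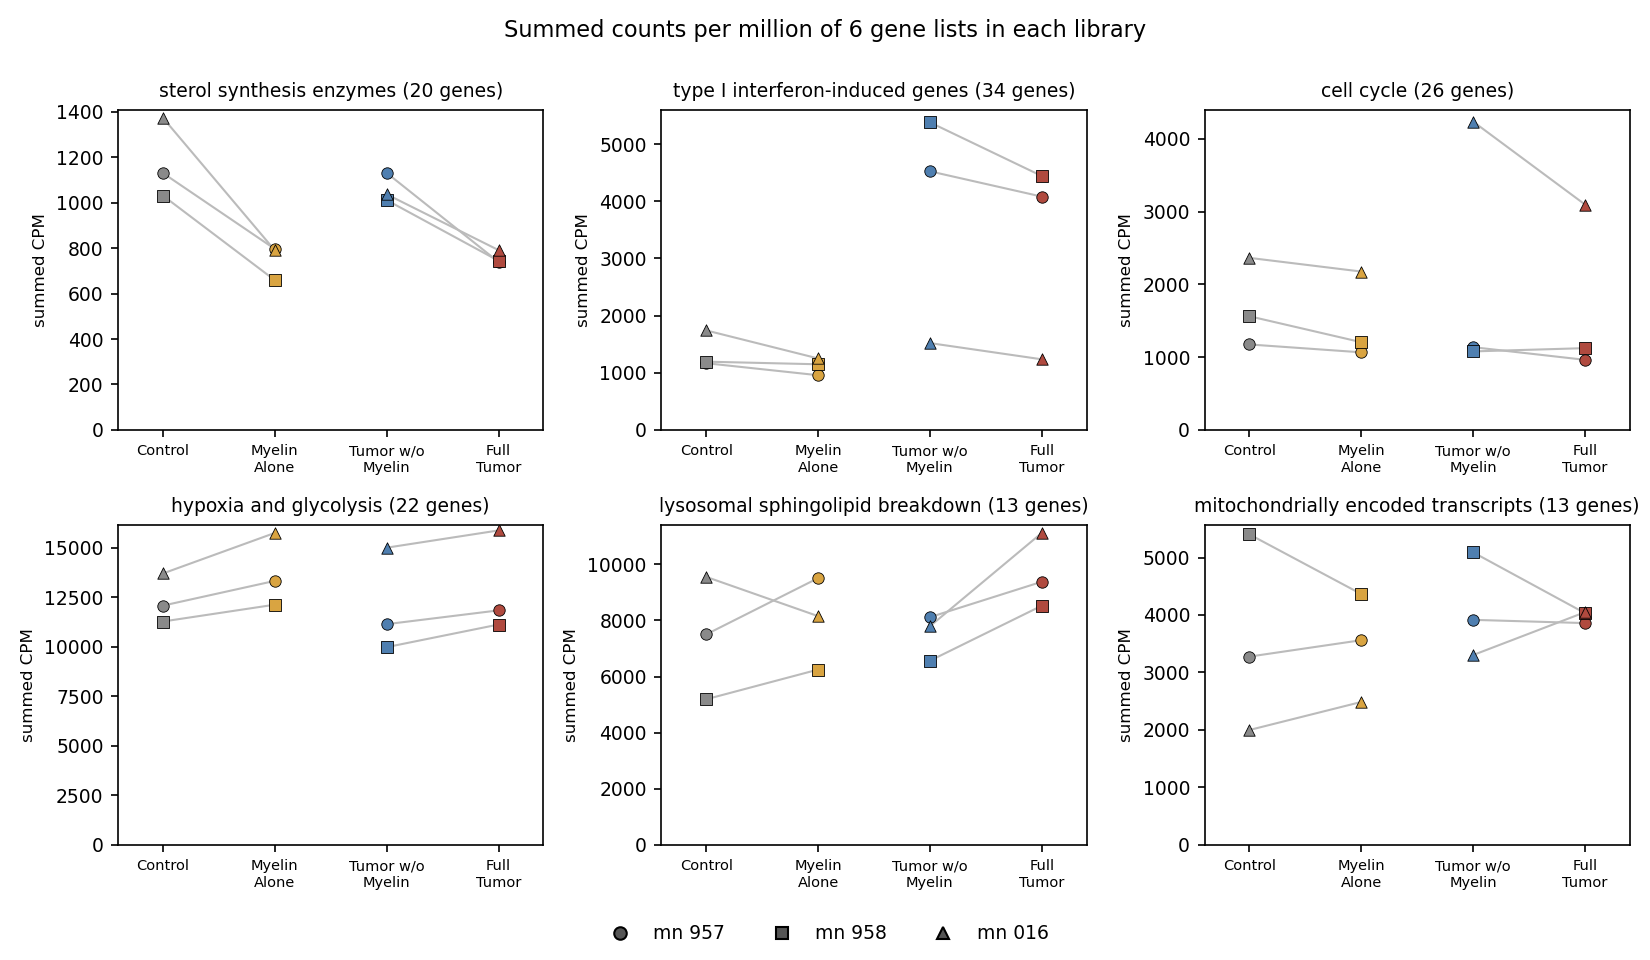
Summed CPM of 6 gene lists in each of the 12 libraries (linear axes from 0), with the marker giving the mn number and grey lines joining same-numbered libraries. The sterol enzymes separate the groups with and without myelin, while in the tumor groups the interferon sums are lowest and the cell cycle sums highest in the number 016.

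Inflammatory genes gave no shared direction. Cytokines and NF-kB feedback genes had a median of -0.022 and chemokines with their receptors -0.003. Nlrp3, the inflammasome sensor, stood at 9.98, 5.07 and 12.8 CPM in Full Tumor and at 15.3, 11.7 and 20.3 CPM in Tumor without Myelin (-0.80 ± 0.26, unadjusted p 0.0102 in edgeR), lower in each pair. Ccl2, which recruits monocytes, stood at 8.97, 21.0 and 352 against 1.85, 4.28 and 339 CPM, and Ccl7, a related chemokine, at 3.27, 12.4 and 129 against 1.08, 1.94 and 126 CPM. In both the number 016 stood far above the others in either group and its own pair was nearly level. The log2 fold change of Ccl2 was 1.47 ± 0.41 (adjusted p 1.00 in edgeR). It was 2.19 with an adjusted p of 0.0181 without the Full Tumor library numbered 016, 2.28 without all 4 libraries of that number (adjusted p 0.400), and 0.15 without the replicate block. Ccl9 was lower in each pair (-0.29 ± 0.12).

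Antigen presentation, macrophage identity and alternative activation had medians near 0. MHC class II genes had a median of -0.082 and MHC class I genes -0.049; H2-Ab1, a class II chain, stood at 541, 753 and 139 against 502, 633 and 187 CPM (0.029 ± 0.25), with the number 016 lowest in both groups. Alternative activation genes had a median of 0.059, and the mannose receptor Mrc1 had 22.5, 19.3 and 57.7 against 23.5, 17.9 and 59.6 CPM. Macrophage identity genes had a median of -0.062 over 18 members. Within them Mpeg1, perforin-2, had 0.36 ± 0.15 with mixed signs, Cd14, the co-receptor for endotoxin, -0.33 ± 0.16 and Adgre1 -0.23 ± 0.12.

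Genes associated with microglia had 8 of 11 members below 0 and a median of -0.11. That median ranged from -0.47 to -0.042 with libraries left out. Cx3cr1, the fractalkine receptor, stood at 68.7, 58.2 and 141 against 133, 94.3 and 220.3 CPM (-0.75 ± 0.48) and Fcrls at 52.9, 97.3 and 101 against 72.4, 112 and 142 CPM (-0.39 ± 0.32). Both were lower in each pair, with overlapping groups and unadjusted p-values of 0.146 and 0.252 in edgeR.

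Growth and angiogenic factors had a median of 0.11. It was 0.057 and 0.33 without the Tumor without Myelin libraries numbered 957 and 958, 0.062 without the Full Tumor library numbered 016, and 0.054, 0.20 and 0.075 without all libraries numbered 957, 958 and 016 in turn. Pdgfc, a platelet-derived growth factor, was low, 4.33, 7.36 and 1.46 against 1.23, 2.68 and 0.850 CPM, and higher in each pair (1.40 ± 0.43, unadjusted p 0.00735 in edgeR). Mif, a cytokine made by many cells, stood at 276, 288 and 305 against 195, 233 and 268 CPM (0.33 ± 0.11) with all Full Tumor libraries above.

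Cell cycle genes were below 0 in 24 of 26 cases, and 10 were lower in each pair (median -0.26; -0.17, 0.0034 and -0.49 by pair). Their sum was 963, 1123 and 3098 CPM in Full Tumor and 1137, 1079 and 4238 CPM in Tumor without Myelin, with the number 016 several times above the others. Mcm2, of the replication helicase, stood at 26.9, 38.2 and 94.8 against 37.7, 54.7 and 121 CPM (-0.45 ± 0.15, unadjusted p 0.0101 in edgeR), and Ccna2, cyclin A2, had -0.50 ± 0.26. Without the Tumor without Myelin library numbered 016 the list median was 0.048, without that numbered 958 it was -0.48, without the Full Tumor library numbered 016 -0.43 and without all libraries numbered 016 -0.11. Of the immediate early genes, Btg2 and Ier2 were lower in each pair (-0.45 ± 0.18 and -0.31 ± 0.13), with a list median of -0.0077.

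Transcripts of other cells were followed because sorted macrophages can carry RNA of what they took up or of cells sorted with them. Among oligodendrocyte transcripts Mobp, a myelin protein gene, stood at 0.845, 0.912 and 0.614 CPM in Full Tumor and at 0 in all 3 Tumor without Myelin libraries. It was at least 4.67-fold higher in Full Tumor, with 3 counts per library as the floor. In Myelin Alone it stood at 0.527, 0.441 and 0.443 CPM and in Control at 0 in all 3 libraries, so that it was counted in all 6 Full Tumor and Myelin Alone libraries and in none of the other 6. Its edgeR test had an unadjusted p of 0.00204 and an adjusted p of 0.989. The more abundant Mbp, which macrophages also express in a longer form, stood at 65.8, 61.0 and 47.1 against 52.6, 67.6 and 44.4 CPM (0.092 ± 0.14), and was as high in Control, 66.4, 76.9 and 47.7 CPM. Over the 7 of 13 oligodendrocyte genes in the table the sum was 145, 161 and 127 CPM in Full Tumor and 129, 158 and 133 CPM in Tumor without Myelin.

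Neuron transcripts summed to 0.317, 0.342 and 1.61 CPM in Full Tumor and to 1.54, 0 and 0.546 CPM in Tumor without Myelin over 4 genes. The single T and NK cell gene was at 0 in 5 of the 6 libraries and at 0.304 CPM in the Tumor without Myelin library numbered 016. Aldh1l1, of the astrocyte list, was lower in all Full Tumor libraries, 5.70, 5.19 and 3.87 against 9.04, 16.8 and 6.13 CPM (-1.07 ± 0.38, unadjusted p 0.0159 in edgeR). It was also counted in Control, at 12.1, 4.88 and 5.10 CPM. Gja1, the other tested gene of that list, had mixed signs over the pairs (0.17 ± 1.24). The endothelial gene Pecam1 was lower in all Full Tumor libraries too, 0.158, 0.0570 and 0.0945 against 2.21, 3.82 and 1.21 CPM, and stood at 0.0532, 0.219 and 2.11 CPM in Control. Summed, the astrocyte list held 7.18, 7.87 and 15.8 CPM in Full Tumor and 11.0, 17.5 and 12.0 CPM in Tumor without Myelin, and the endothelial and mural list 8.76, 9.24 and 17.2 and 12.2, 15.0 and 16.3 CPM, with overlapping groups. Fibroblast genes summed to 1.85, 19.1 and 12.1 CPM in Full Tumor and to 0.308, 0 and 12.0 CPM in Tumor without Myelin, where the pair numbered 958 differed most. Dcn, decorin, stood at 0.317, 12.4 and 4.30 against 0, 0 and 1.64 CPM, Col1a2, a collagen chain, stood at 0.950, 4.56 and 4.30 against 0, 0 and 2.67 CPM, and Timp1, a protease inhibitor, at 1.21, 14.8 and 7.79 against 0.873, 0.400 and 6.25 CPM. Neutrophil granule genes summed to 76.9, 90.5 and 16.0 CPM in Full Tumor and to 10.4, 114 and 61.4 CPM in Tumor without Myelin, with overlapping groups. Among them Mpo, myeloperoxidase, was counted in the number 016 alone in both groups, 0, 0 and 3.87 against 0, 0 and 10.6 CPM. Transcripts of glioma cells and their precursors summed to 63.4, 101 and 44.0 CPM in Full Tumor and to 81.4, 121 and 48.0 CPM in Tumor without Myelin, lower in each pair. Most of this sum was Pdgfb, a platelet-derived growth factor chain that is also in the growth factor list, at 53.1, 88.3 and 34.5 against 75.3, 105 and 34.7 CPM (-0.26 ± 0.19). In Control the list summed to 90.1, 140 and 37.1 CPM, and Pdgfb stood at 82.5, 122 and 28.2 CPM, so neither was particular to libraries with tumor material. Sox10 was at 0 in all 6 Full Tumor and Tumor without Myelin libraries, and Olig2, Sox2 and Dll3 in 5 of the 6. Olig1 stood at 0, 0 and 0.756 CPM in Full Tumor and at 1.03, 1.37 and 0.728 CPM in Tumor without Myelin (-3.05 ± 1.62, unadjusted p 0.0849 in edgeR). Pdgfra went the other way in the number 016, at 0, 0 and 2.64 against 0, 0 and 0.121 CPM. Of the B cell genes, Cd79b stood at 2.27, 2.22 and 4.25 CPM in Full Tumor and at 1.44, 0.400 and 1.88 CPM in Tumor without Myelin (1.18 ± 0.79), with all Full Tumor libraries above. Mitochondrially encoded transcripts had a median of 0.064, -0.32 and 0.37 in the 3 pairs. The part of these transcripts in the differences above was not tested. In bulk libraries, fewer cells of a type and less RNA per cell cannot be told apart.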

How the data were processed

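The table deposited by the authors holds unnormalized integer counts with Ensembl identifiers, symbols and positions; coordinates are on mm10, per the submitters' processing notes. Sorted cells were lysed, RNA was purified on columns with DNase and reverse transcribed from oligo-dT with template switching, as the labels' protocols describe. Aligner, counter and strand use: not given in the sources used here. Hence overlapping, antisense and near-identical genes cannot be told apart. Libraries held 17071673 to 21689624 counts; intervals and floors cover counting error only.

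CPM, log2 fold changes and tests were computed here. Genes kept by filterByExpr were tested with the quasi-likelihood method of edgeR 4.0.16 (R 4.3.3). TMM factors were 0.965 to 1.06, and the 12 libraries entered together with group and mn number as terms (6 residual degrees of freedom). Two-sided p-values had Benjamini-Hochberg adjustment over the 13414 tested genes, which held 99.9% of the counts. Each SE is the absolute log2 fold change divided by the root of its F statistic. Pair differences are log2(CPM + 0.5). DESeq2 1.42.0 and limma 3.58.1 (voom) were alternatives; DESeq2 gave no adjusted p for 521 genes. The procedure was tested on simulated data.

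Same-numbered libraries deviated together from their group means: the correlation across genes was above 0.1 in 18 of 18 same-numbered pairs (0.120 to 0.631), and 0.217 to 0.631 for Full Tumor with Tumor without Myelin. The numbers 957 and 958 were told apart less clearly than 016 was from either. Full Tumor 957 had 0.256 with Tumor without Myelin 958, above the 0.217 with its own partner. It also had higher values with 958 than with 957 in Control (0.187 and 0.138) and in Myelin Alone (0.159 and 0.120). All correlations of 016 libraries with other numbers were negative. Deviations cancel out within each group, so positive values within a number push those between numbers down. The numbers, by which the libraries had been paired at the outset, were used as a replicate block. The labels give the number but not its meaning. Libraries of a group differed beyond sampling noise, with a chi-square over its degrees of freedom of 23.9 to 142 on genes with at least 20 counts.

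Named genes were the 10 with the lowest p in each direction among genes of at least 10 CPM with the same direction in the 3 pairs, the 3 lowest p in each list, and a panel of lipid, immune and other-cell genes; exceptions are stated, and some genes the rule allows are covered by their list alone. Some genes are not reported here by name, but counts, sums and medians of lists include them. The members, lists and rules were chosen with earlier results of these data known. Promoter sequences are from RefSeq (GRCm38.p6).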

Additional observations from a re-analysis of the deposited data

How the results depend on the processing

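As reported, edgeR called 0 genes higher and 0 lower. Counts were 2 higher and 3 lower with no filter on low counts, 2 higher and 4 lower with at least 10 CPM in a group, and 4 higher and 11 lower with DESeq2; the genes tested or the test differ by construction. They were 0 in each direction with library totals, with DESeq2 size factors, with the 6 tumor libraries alone, and with limma-voom. Without the replicate block edgeR also called 0 genes, with 161 at an unadjusted p under 0.05 against 520 in the paired fit. Leaving out a library or a number gave 0 to 1 genes higher and 0 to 1 lower: Ccl2 without the Full Tumor library numbered 016, and Sqle without the Control library numbered 016. The interaction called 0 genes in each setting run; it could not be fitted to the 6 tumor libraries alone.

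Sqle was -1.06 to -0.85, Cyp51 -0.98 to -0.72, Abcg1 0.61 to 0.81 and Gsta3 0.96 to 1.26 over 23 other settings each, with adjusted p-values up to 1. The sterol enzyme median was -0.57 to -0.41.

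The sign of these genes changed in some settings. Mrc1 was 0.0027 as reported and -0.0195 without the replicate block, -0.00218 with the 6 tumor libraries, -0.00979 with library totals, -0.00311 with DESeq2 size factors, -0.00330 above 10 CPM, -0.00295 in DESeq2 and -0.0118 in limma-voom. H2-Ab1 was -0.0169 with the 6 tumor libraries. With libraries left out, the ranges were -0.15 to 0.11 for Apoe, -0.19 to 0.13 for Dhcr7, -0.034 to 0.13 for Ebp, -0.014 to 0.18 for Gpnmb, -0.20 to 0.33 for H2-Ab1, -1.44 to 0.039 for Ifit1, -1.28 to 0.17 for Ifit3, -0.83 to 0.30 for Irf7, -1.16 to 0.048 for Isg15, -7.15 to 0.19 for Zfp184, -0.045 to 0.21 for Mbp, -0.12 to 0.14 for Mrc1 and -0.40 to 0.021 for Mvd.

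List medians with libraries left out ranged from -0.011 to 0.11 for lipid droplets, -0.028 to 0.14 for fatty acid oxidation, -0.028 to 0.066 for scavenger receptors, -0.20 to 0.21 for MHC class II, -0.20 to 0.11 for MHC class I, -0.07 to 0.15 for alternative activation, -0.15 to 0.14 for cytokines, -0.076 to 0.094 for chemokines, -0.13 to 0.11 for immediate early genes, -0.11 to -0.022 for macrophage identity and 0.0061 to 0.085 for heme and iron genes.

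Depth limits Mobp, Cxcl10, Mmp9, Pecam1, Olig1 and Pdgfra, which lie at a few CPM or less. Over the recomputed log2 fold changes of selected single genes, 838 under other settings and 1614 with libraries left out kept their sign and side of the threshold. Of the rest, 20 and 2 gained a call, and 8 and 34 changed sign. List medians, several of which changed sign as given above, and counts of calls are not among these.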
